A study of Mus musculus with 9 samples.

Results

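EWS/ATF1 binding was examined at 4 gene loci of the neural crest, melanocyte and Schwann cell lineages, those of Sox10, Mitf, Ngfr and Pmp22. The members were all peaks of the G1297 list and of the MEF list that overlapped a fixed window of the mouse genome (build mm9) around each gene, without regard to their score. The windows were chr15:78930000-79050000 for Sox10, chr6:97700000-98030000 for Mitf, chr11:95380000-95500000 for Ngfr and chr11:62890000-63030000 for Pmp22. They held 35 of the 35220 peaks in both lists, 12 of 8090 in G1297 and 23 of 27130 in the MEFs.

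G1297 is a cell line established from a mouse clear cell sarcoma that formed after EWS/ATF1 induction, and it carries Dox-controllable EWS/ATF1. Sarcoma MEFs were fibroblasts from chimeric embryos made with induced pluripotent stem cells (sarcoma iPSCs #3), which had been reprogrammed from G1297, and were selected with puromycin to keep the sarcoma-iPSC-derived cells. Both cell types therefore carry the same inducible fusion, both received Dox at 0.2 µg/ml for 12 h, and EWS/ATF1 was recovered with an antibody against its HA tag for ChIP-Seq. The labels describe 2 ChIP libraries of G1297 and 1 of the MEFs with input libraries, G1297 is 1 line and the MEFs come from 1 iPSC clone, and the number of embryos was not given in the sources used here. ChIP libraries without Dox were not analysed here, so no background level without the fusion stands beside the values.

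Each list gives 1 score per peak, which MACS writes as -10 times the log10 of the P value of the peak, so a higher score means stronger evidence of enrichment. The authors' P value threshold of 1e-09 corresponds to a score of 90. The lists carry no read counts and no values per library, so the depth is unknown, no value has a replicate error and no difference between the cell types could be tested. Scores of single peaks were compared within a list, as the share of its peaks with a lower score. Some counts apply the same score minimum to both lists. At the unknown depth, such a minimum may not be equally strict in both. A score of exactly 3100 was held by 209 G1297 and 1062 MEF peaks, whose order among themselves is not known.

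Sox10 is a transcription factor of the migrating neural crest that is kept in Schwann cells and melanocytes. Mitf is the transcription factor that directs the melanocyte programme, and its gene has several alternative start sites, the most downstream of which gives the melanocyte form. Ngfr encodes the p75 neurotrophin receptor, a surface marker of neural crest cells and Schwann cells, and Pmp22 encodes a membrane protein of the myelin that Schwann cells make. EWS/ATF1 joins a transcriptional activation domain of EWS to the DNA-binding domain of ATF1, which recognises the cyclic AMP response element (CRE).

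The full CRE, TGACGTCA, and its core, TGACG on either strand, were searched in the RefSeq promoters (GRCm38.p6, 250 bases before to 50 after a start site), which covered Mitf with 3 start sites, Ngfr with 1 and Pmp22 with 4. Of these 8 promoters, 1 held the full CRE, that of the most downstream Mitf start site, from position -153 to -146 before the start. The core was found in no other place of the 8 promoters, and its 2 matches in Mitf lie within the full CRE, 1 on each strand. Over all 32851 RefSeq promoters, 1.79% held the full CRE and 20.8% the core. The Mitf sequence is shown because it is the only one of the 8 with the full CRE. It lies at chr6:97991533-97991782 on the plus strand of GRCm38.p6, a different build from that of the peaks, and ends 1 base before the start. The CRE is in capitals.

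Mitf melanocyte promoter: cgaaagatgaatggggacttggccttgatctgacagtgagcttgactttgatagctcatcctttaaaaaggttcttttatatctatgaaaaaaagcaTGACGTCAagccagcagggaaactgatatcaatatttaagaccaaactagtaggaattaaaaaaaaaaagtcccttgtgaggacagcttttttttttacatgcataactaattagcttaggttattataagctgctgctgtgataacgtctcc

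Whether a peak of either list covers this or another start site was not determined, because no mm9 gene annotation was at hand and coordinates were not converted. Peaks are therefore given by their mm9 position in the window and not as promoter, intronic or intergenic peaks, and a window can also hold parts of neighbouring genes.

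Most EWS/ATF1 peaks at these loci lay at Mitf, with 8 peaks in G1297 and 15 in sarcoma-iPSC MEFs, followed by Pmp22, with 4 and 6. The Mitf window is longer, and the number of peaks per 100 kb was 2.42 at Mitf and 2.86 at Pmp22 in G1297, and 4.55 and 4.29 in the MEFs. Sox10 and Ngfr had 0 G1297 peaks and 1 MEF peak each. Within the windows, the strongest peaks at Mitf were the ones that both cell types had in common. At Pmp22, the strongest peak of each cell type in the window lay where the other had none. In the MEF list, both patterns depended on the window limits, as given below for each locus. The 2 Pmp22 peaks scored above 78.9% of the G1297 list and 73.3% of the MEF list. Between 70% and 80%, 72.6% of all G1297 peaks but only 23.7% of all MEF peaks overlapped the other list. Across the 4 windows, 6 of 12 G1297 peaks shared at least 1 bp with a MEF peak, against 62.8% of the whole G1297 list, and 6 of 23 MEF peaks overlapped a G1297 peak, against 18.5% of the whole MEF list. The median member scored higher than 62.3% of the list in G1297 and than 44.7% of the list in the MEFs. Among the members, 2 of 12 G1297 peaks scored above 90% of their list, against 9.99% of all G1297 peaks, and 4 of 23 MEF peaks did so, against 10.00% of all MEF peaks. All 6 of these lay at Mitf.

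At Mitf, 5 sites were bound in both cell types, 3 in G1297 alone and 10 in the MEFs alone, as counted from overlapping peaks. Shared peaks made up 62.5% of the G1297 peaks there, against 62.8% of the whole list, and 33.3% of the MEF peaks, against 18.5%. On chromosome 6, these shares were 55.8% and 23.5%. When only the 8090 highest-scoring of the 27130 MEF peaks were kept, 5 of the 15 MEF peaks remained at Mitf, all of them shared. Then 8 G1297 peaks stood against 5 MEF peaks. The G1297 list was left whole in this comparison. With a score of at least 500 required in both lists, Mitf had 3 G1297 and 5 MEF peaks, and the whole lists had 2498 and 9719. The G1297 peaks extended over 135 kb and the MEF peaks over 318 kb of the 330 kb window. The MEF span was set by low-scoring peaks at its ends, chr6:97711329-97712238 with a score of 171.40 and chr6:98029066-98029770 with 91.13. The rest of the MEF peaks lay within the 136 kb spanned by the shared ones. The 5 MEF peaks with the highest scores in the window were exactly the 5 that overlapped a G1297 peak, with scores from 1214.62 to 3100. The other 10 MEF peaks of the window had scores from 91.13 to 286.44. In the whole MEF list, 40.3% of the peaks with a score of at least 1000 overlapped a G1297 peak. In G1297, the 4 highest scores at Mitf also belonged to shared peaks, and the 3 peaks without a MEF counterpart scored 103.35, 176.82 and 204.41. The remaining shared G1297 peak, with a score of 146.40, was lower than 2 of the unshared ones.

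The shared Mitf site at the lowest coordinates had the highest G1297 score of the locus. Its G1297 peak lay at chr6:97768652-97769913 with a score of 2266.80, higher than 95.0% of the G1297 list, and its MEF peak at chr6:97767878-97769983 with a score of 3100, higher than 95.8% of the MEF list. This site thus stood near the top of both lists. The next shared site had a G1297 peak at chr6:97778575-97779657 with a score of 502.79, above 69.3% of its list. It was contained in a MEF peak at chr6:97778289-97779795 with a score of 1975.10, above 91.2% of its list.

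The site at chr6:97861435-97862575 was the second strongest at Mitf in G1297 and the weakest of the shared sites in the MEFs. Its G1297 score of 1671.26 was higher than 91.4% of the list, and its MEF score of 1214.62 was higher than 84.1%. The following shared site showed the opposite order. At chr6:97871262-97872041 the G1297 peak had a score of only 146.40, above 25.6% of its list, while the MEF peak at chr6:97871116-97873353 had a score of 3100, above 95.8% of its list. The position in the list differed by 70.2 percentage points, a larger difference toward the MEFs than in 95.2% of all 5109 overlapping pairs. The MEF peak was 2238 bp wide, 2.87 times the width of the G1297 peak within it, and was wider than 98.0% of the MEF list. The last shared site had a G1297 peak at chr6:97902609-97903543 with a score of 475.26, above 67.8% of the list, inside a MEF peak at chr6:97902447-97903751 with a score of 3100.

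Set against all overlapping pairs, the Mitf sites ran from just above the lower quartile to near the upper end of the range. The MEF position in the list minus the G1297 position was 0.840, 21.8, -7.23, 70.2 and 28.1 percentage points from the lowest to the highest coordinate. Over all pairs, the median was 9.86 points, with quartiles of -9.15 and 34.3, and on chromosome 6 it was 2.91 points over 353 pairs. A total of 4 of the 5 Mitf sites thus ranked higher in the MEF list, as did 63.1% of all pairs and 54.4% of those on chromosome 6. In 4 of the 5 pairs the G1297 peak lay wholly within the MEF peak, and in the remaining pair 94.9% of it did.

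**Figure D1:**
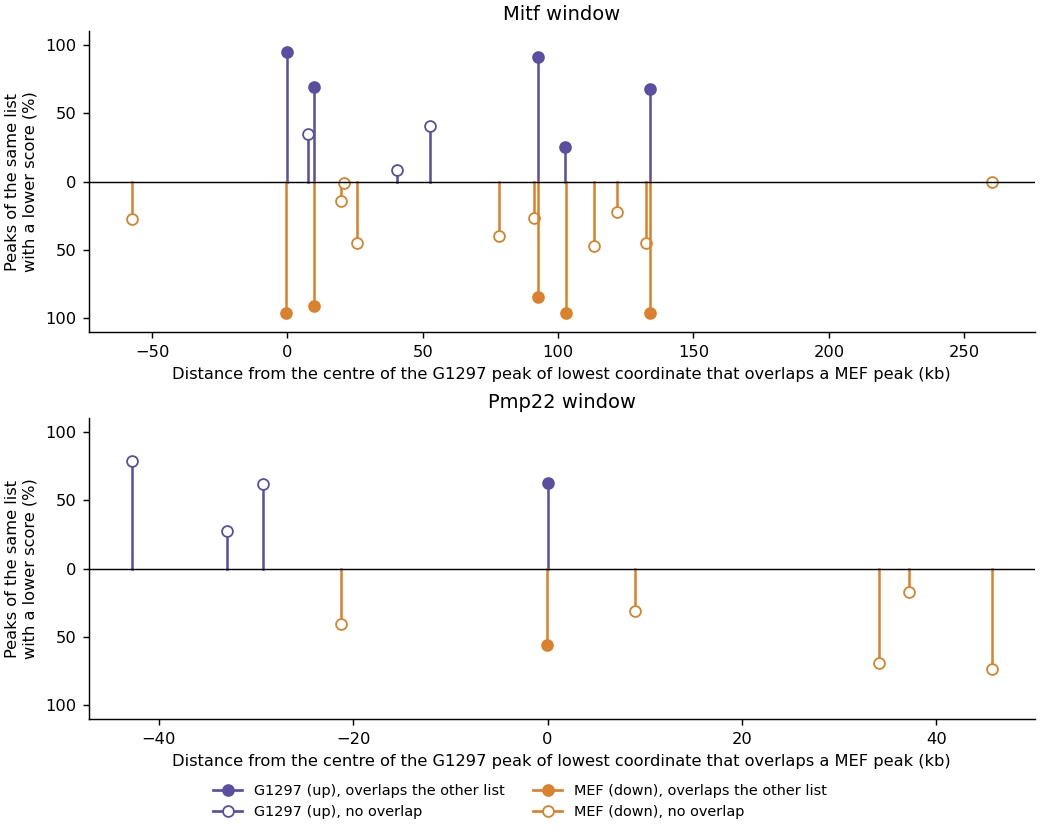
Peaks at Mitf (upper panel) and Pmp22 (lower panel) by distance in kb from the centre of the lowest-coordinate G1297 peak that overlaps a MEF peak, with height giving the percentage of the same list that has a lower score, G1297 upward and MEF downward, and filled points for peaks that overlap the other list. At Mitf the stems above 50% of either list are filled, 1 filled G1297 stem is short at 25.6% opposite a MEF stem of 95.8%, and at Pmp22 only 1 position is filled and the tallest stem of each list is open.

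The Mitf peaks without a counterpart scored below the median of their list. Of the 10 MEF peaks, 2 lay within 1000 bp of a G1297 peak, at gaps of 375 and 855 bp, against 1.88% of all unshared MEF peaks. The median gap was 10.0 kb, against a median of 108 kb for all unshared MEF peaks on chromosomes with a G1297 peak. Beside the last shared site, the MEF peak at chr6:97901453-97902233 had a score of 270.68. The highest-scoring unshared MEF peak, at chr6:97881752-97883030 with a score of 286.44, was 9.71 kb from the nearest G1297 peak and still below the list median of 314.77. The 3 unshared G1297 peaks lay 1.11, 13.8 and 24.5 kb from a MEF peak, against a median of 18.7 kb for all unshared G1297 peaks, of which 6.05% lay within 1000 bp. The one at the shortest distance, chr6:97776474-97777174, had a score of 176.82 and lay between the lower 2 shared sites. The others, at chr6:97809225-97809957 and chr6:97821668-97822360, had scores of 103.35 and 204.41 and lay between these and the remaining shared sites.

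Peaks at both Mitf and Pmp22 formed groups of neighbours, which were not set against the whole lists. Neighbours were joined at gaps of at most 10000 bp. At Mitf, the MEF list had a run of 5 peaks over 27.5 kb and a run of 7 peaks over 43.9 kb. The G1297 list had runs of 3 peaks over 11.0 kb and of 2 peaks over 10.6 kb there. All 5 shared Mitf sites lay in the 2 MEF runs of that window. At Pmp22, the G1297 list had a run of 3 peaks and the MEF list had runs of 2 and 3 peaks. Just beyond the Mitf window, both lists had a further overlapping pair of peaks with a score of 3100. They lay at chr6:98038610-98040750 in G1297 and chr6:98038650-98040668 in the MEFs. They began 8.61 and 8.65 kb past the end of the window and are not among the members. On the lower side, 21.5 kb before the window, the MEF list had a peak at chr6:97677301-97678512 with no G1297 counterpart. Its score of 1870.23, above 90.5% of the MEF list, was higher than the shared MEF score of 1214.62. The match of the highest MEF scores with shared peaks therefore depends on the window limits.

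At Pmp22, 1 pair overlapped among 4 G1297 peaks and 6 MEF peaks. For the MEFs, 1 shared peak of 6 was close to the share in the whole MEF list, 18.5%, and on chromosome 11, 17.8%. For G1297, 1 shared peak of 4 stood against 62.8% of the whole list and 57.1% on chromosome 11. This lower share rests on only 4 peaks and was not tested. Among the 8090 highest-scoring of the 27130 MEF peaks, 1 lay at Pmp22, and it was not shared. The shared G1297 peak at chr11:62949567-62950354 had a score of 397.10, above 62.9% of its list, and the MEF peak around it at chr11:62949510-62950386 a score of 380.95, above 56.0% of its list. Their centres were 12.5 bp apart. The difference in list position was -6.82 percentage points, close to the lower quartile of all pairs.

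All 3 unshared G1297 peaks at Pmp22 lay at lower coordinates than every MEF peak of the window. They formed a run of 14.8 kb, 7.01 to 20.3 kb from the nearest MEF peak. The strongest, at chr11:62906445-62907965, had a score of 770.82, above 78.9% of the G1297 list, and was 1521 bp wide. The others, at chr11:62920093-62921267 and chr11:62916643-62917370, had scores of 385.12 and 152.22. Between them and the shared site lay 1 MEF peak, at chr11:62928278-62929151, with a score of 240.53.

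The other 4 unshared MEF peaks at Pmp22 lay at higher coordinates than every G1297 peak of the window. The strongest was at chr11:62995091-62996180 with a score of 716.95, above 73.3% of the MEF list and 44.7 kb from the nearest G1297 peak. A peak at chr11:62983340-62984677 followed with a score of 592.22, above 68.8% of the list. The peaks at chr11:62958547-62959362 and chr11:62986762-62987547 were weaker, with scores of 188.22 and 133.84. No Pmp22 peak scored above 90% of its list. In the whole lists the share of overlapping peaks increased with the score, to 78.5% of G1297 peaks and 31.9% of MEF peaks with a score of at least 500. In the Pmp22 window, 0 of 1 G1297 peak and 0 of 2 MEF peaks with such a score overlapped, and in the Mitf window 3 of 3 and 5 of 5 did. An overlapping pair that is not among the members lay just before the Pmp22 window, 20.2 kb away in G1297 and 20.1 kb in the MEFs. Its peaks, at chr11:62868699-62869750 in G1297 and chr11:62868653-62869927 in the MEFs, had scores of 623.77 and 939.58. The MEF score was higher than any in the window, so the Pmp22 counts at this minimum depend on the window limits.

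**Figure D2:**
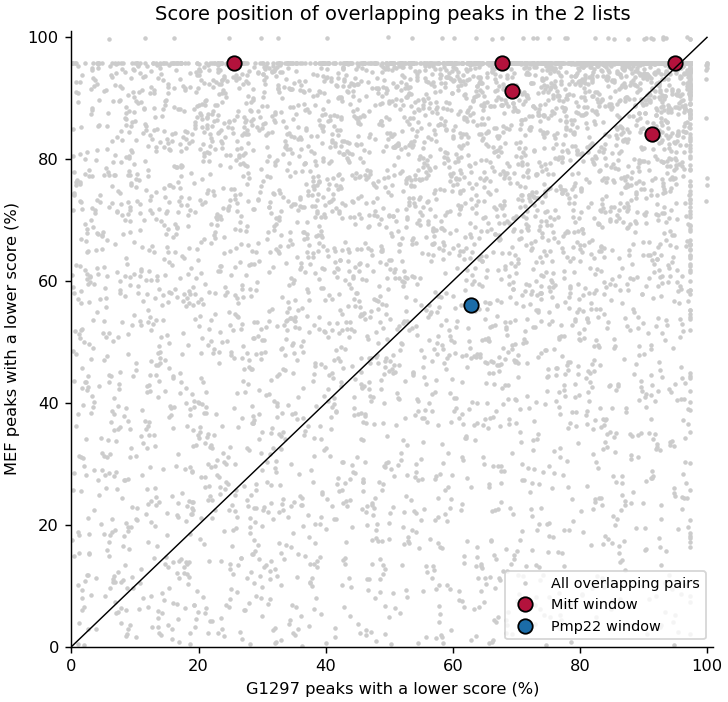
Each point is an overlapping pair of a G1297 and a MEF peak, placed by the percentage of the G1297 list (horizontal) and of the MEF list (vertical) with a lower score, with all 5109 pairs in grey and the line marking equal position. Of the 5 Mitf pairs, 3 lie on the band that the MEF score of 3100 forms at 95.8%, with G1297 positions of 25.6%, 67.8% and 95.0%, and the Pmp22 pair lies just below the line.

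At Sox10, no peak was listed in G1297 and 1 in the MEFs. The MEF peak lay at chr15:78938080-78938901, with its centre 8.49 kb from the lower end of the window and a width of 822 bp. Its score of 217.05 was above 36.5% of the MEF list. The nearest G1297 peak was 198 kb away, at chr15:79136475-79137264, with a score of 319.21, and lay 86.5 kb beyond the window. On the lower side, the next G1297 peak was 419 kb from the window.

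Ngfr showed the same numbers. Its MEF peak lay at chr11:95438992-95440055, near the middle of the window, and had a score of 289.95, above 47.2% of the MEF list. The nearest G1297 peak was 193 kb away, at chr11:95245605-95246273, with a score of 119.91. On the other side the next G1297 peak was 1305 kb from the window, and the next MEF peak 632 kb. The absence of G1297 peaks at Sox10 and Ngfr means that no region passed the P value threshold there. Neither MEF peak was among the 8090 highest-scoring of the 27130 MEF peaks. At the unknown depth, weaker binding cannot be told apart from no binding.

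**Figure D3:**
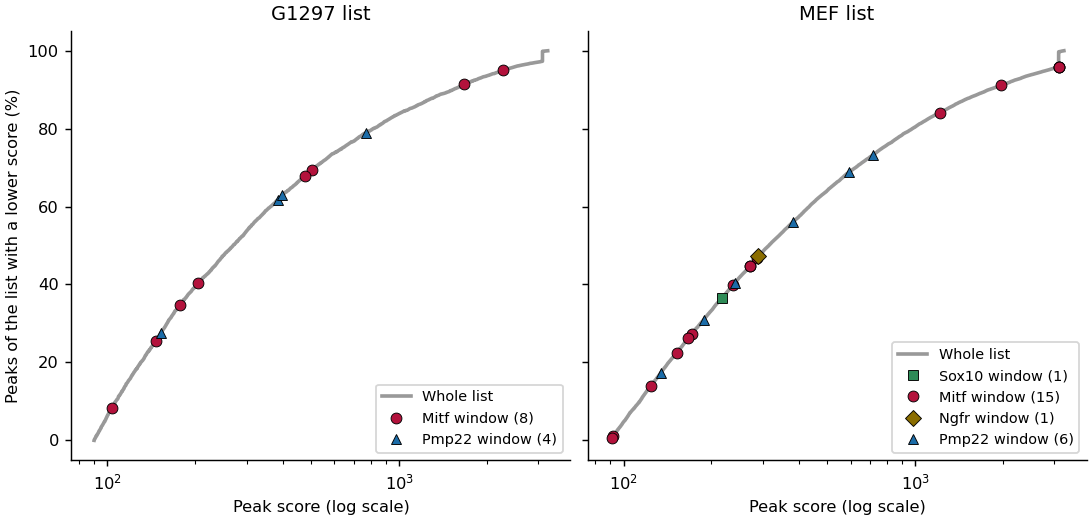
Percentage of the list with a lower score (vertical) against peak score (horizontal, log scale) for the whole G1297 and MEF lists (grey curves) and for the members of each window (symbols, numbers in brackets). The single Sox10 and Ngfr peaks, present in the MEF list only, lie below the middle of the list at 36.5% and 47.2%, and the symbols above 90% belong to Mitf.

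The number of peaks per window was set against all tiles of the same length laid along the chromosomes, as a description and without a test. At Mitf, 1.60% of 8012 tiles of 330 kb held 8 or more G1297 peaks and 1.71% held 15 or more MEF peaks, and the mean tile held 1.01 and 3.40 peaks. On chromosome 6 alone, 3.98% of the tiles held 8 or more G1297 peaks. Counting only tiles with at least 1 peak of either list, the shares were 2.25% for G1297 and 2.40% for the MEFs. Few regions of this length thus held as many peaks as the Mitf locus. Among the 32 tiles with exactly 15 MEF peaks, the median number of G1297 peaks was 5.00, and 18.8% had 8 or more. At Pmp22, 2.45% of 18868 tiles of 140 kb held 4 or more G1297 peaks and 5.56% held 6 or more MEF peaks. Among tiles with at least 1 peak of either list, these shares were 4.53% and 10.3%. Among the 413 tiles with exactly 6 MEF peaks, 13.8% had 4 or more G1297 peaks.

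Numbers like those at Sox10 and Ngfr were common. Of 22010 tiles of 120 kb, 79.6% held no G1297 peak and 52.0% held no MEF peak. Among the 3949 tiles with exactly 1 MEF peak, 77.3% had no G1297 peak, as these loci did.

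**Figure D4:**
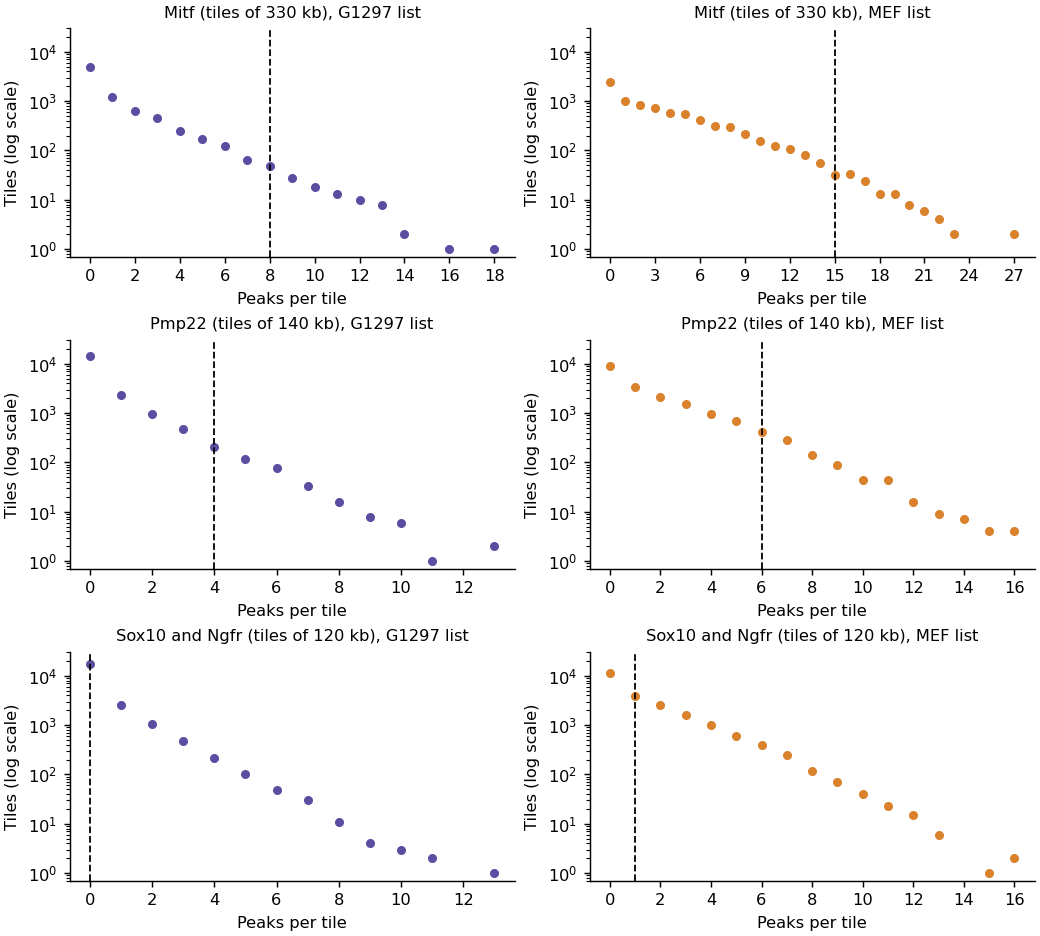
Number of tiles (vertical, log scale) by the number of peaks they hold (horizontal) for tiles of the length of each window, with the G1297 list on the left and the MEF list on the right, and dashed lines at the numbers found in the windows. The Mitf lines at 8 and 15 peaks stand in the sparse right part of the distributions, and the Sox10 and Ngfr lines at 0 and 1 peak stand at the left end.

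The proportion of the lists also differed between chromosomes, and these values stand beside the counts. The MEF list held 3.35 peaks for each G1297 peak in all, 2.35 on chromosome 6, 3.16 on chromosome 11 and 2.68 on chromosome 15. The ratio was 1.88 at Mitf, and at Pmp22 it was 6 MEF peaks to 4 G1297 peaks. Chromosome 6, which carries Mitf, held 7.78% of the G1297 list and 5.45% of the MEF list. Ranked within chromosome 6 alone, the highest-scoring Mitf peak exceeded 92.8% of G1297 peaks and 95.5% of MEF peaks. Copy number was not analysed here, and its part in these counts was not tested.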

How the data were processed

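ChIP-Seq with an HA antibody was performed in G1297 and sarcoma MEFs after 12 h of Dox. According to the submitters' processing notes, reads of these samples were handled with FastQC and cutadapt, aligned to mm9 with Bowtie2 2.2.0 and used for peak calling with MACS 1.4.2, and the methods give a P value of 1e-09. The authors deposited 1 peak list per cell type with a score for each peak. Whether 1 or both G1297 libraries and which input entered a list was not given in the sources used here. In all, 191 peaks on 8 of 21 chromosomes ended past the GRCm38 chromosome end, so the GRCm38 annotation was not used for positions. For the same reason, other genes of these lineages were not placed, and CRE sequences were not searched in peaks.

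Starts were converted to count from 1. Peaks were counted in a window, and as shared with the other list, at an overlap of at least 1 bp, in Python 3.11.15 (numpy 2.4.6, pandas 2.3.3). The overlap rules were tested on simulated lists and checked against bedtools 2.31.1. Tiles of the length of a window ran without gaps from the start of each chromosome to its last peak. Peaks are not replicates, and no test was run. The members and lists were chosen with earlier results of these data known. Every peak was named where a list had at most 8 in a window, and otherwise the 5 with the highest score, shared pairs and peaks above 90% of their list, and the MEF peaks at Mitf beyond these were named after their values were seen. The other 6 samples of the series, inputs and KRAB-fusion libraries, were not analysed here.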

Additional observations from a re-analysis of the deposited data

How the results depend on the processing

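Of 114 comparisons of an alternative with the reported value, 82 stayed close and 32 moved further. For counts and shares of tiles, close meant within 1.5 times the reported value. For shares of the list with a lower score it meant within the 95% Wilson interval, a tolerance that measures no replicate spread. Some of the 82 could not move, such as higher score minimums on the counts of 0 G1297 peaks at Sox10 and Ngfr. Nor could the shared counts there, with the nearest G1297 peak 198 kb and 193 kb from the MEF peak. Counting peaks by their centre changed no number. At scores of at least 200, Mitf had 5 G1297 and 9 MEF peaks. At scores of at least 500, Mitf had 3 and 5 and Pmp22 1 and 2, Sox10 and Ngfr had 0 MEF peaks, and shared peaks numbered 3 in each list at Mitf and 0 at Pmp22. When the lower-scoring MEF peaks were dropped until both lists were equally long (8090 peaks), the MEF counts were 0 at Sox10, 5 at Mitf, 0 at Ngfr and 1 at Pmp22, and Pmp22 had 0 shared peaks in each list. Mitf then had fewer MEF than G1297 peaks and Pmp22 likewise, the opposite of the full lists. This cut kept 8090 of 27130 MEF peaks and removed low-scoring peaks from the MEF list only. A cut of this size lowers MEF counts in windows in general, so the reversal is not read as a trait of these loci. At the same score minimum in both lists, 200 or 500, MEF peaks remained more numerous at Mitf and Pmp22, as they did in the whole lists. The whole lists held 4907 G1297 and 18085 MEF peaks at a minimum of 200, and 2498 and 9719 at 500. For a minimum of 200, Pmp22 had 3 G1297 and 4 MEF peaks. With windows extended by 100000 bp on each side, G1297 had 1 peak at Sox10 and Pmp22 had 8 G1297 and 13 MEF peaks. The other overlap rules gave 4 to 7 shared peaks at Mitf. Among peaks of the same chromosome, the highest scores exceeded 92.8% (G1297) and 95.5% (MEF) at Mitf, 80.4% and 74.5% at Pmp22 and 49.1% (MEF) at Ngfr. With tied scores given a weight of 0.5, the value for MEF peaks at Mitf was 97.8%.

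No paired analysis was possible because the peak lists hold no values for single libraries, which also prevented leaving out a replicate. The planned search of peak sequences and of other lineage genes was not run, since no mm9 genome was at hand. With the depth unknown, no limit of detection can be given.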
